A study of Homo sapiens with 4 samples.

Results

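The miR-30 family was described here in hESC-derived cortical interneurons, inhibitory nerve cells made in culture from human embryonic stem cells (hESCs), with and without ethanol exposure. Its members were taken by name from a table of read counts for 2656 mature miRNAs. All 10 names listed for the family were in the table, 5 of them from the 5p arm of a miR-30 precursor and 5 from the 3p arm. The 4 small RNA-seq libraries came from the H1 line. In 2 cultures (ethanol-exposed replicates 1 and 2) the maturation medium contained around 50 to 100 mM ethanol for 7 days, and 2 cultures (unexposed replicates 1 and 2) were kept for 7 days without ethanol. According to the methods of the study, a further day without ethanol preceded collection of the exposed cells. Both groups were differentiated with the inhibitors LDN-193189, SB-431542 and XAV-939, then SHH and purmorphamine, and matured with BDNF, ascorbic acid and cAMP. A single cell line limits them as a model. The libraries are called replicates in the labels, and p-values measure the spread between these 4 libraries alone.

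miRNAs are cut in pairs from a hairpin precursor, the 5p strand from one side of its stem and the 3p strand from the other. One strand is usually kept in the Argonaute protein as the guide, which finds mRNAs through its seed (bases 2 to 8), and the other is mostly degraded. The 5p strands of the miR-30 family share one seed and so a large set of predicted targets, among them mRNAs for regulators of autophagy, the cytoskeleton and the growth factor BDNF. The family is abundant in brain and in many other tissues.

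The RefSeq (GRCh38.p14) mature sequences used here covered 7 of the 10 members, and lacked miR-30b-5p, miR-30d-5p and miR-30d-3p. They are shown, with the prefix hsa for human, because the seed defines the family and because the small differences after it decide which precursor a read can be assigned to. Capitals mark the seed, and the sequences run 5′ to 3′.
hsa-miR-30a-5p: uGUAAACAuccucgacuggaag
hsa-miR-30e-5p: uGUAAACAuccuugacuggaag
hsa-miR-30c-5p: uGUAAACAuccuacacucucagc
hsa-miR-30a-3p: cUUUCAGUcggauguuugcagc
hsa-miR-30e-3p: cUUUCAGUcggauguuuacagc
hsa-miR-30c-1-3p: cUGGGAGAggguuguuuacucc
hsa-miR-30c-2-3p: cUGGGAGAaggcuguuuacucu
The 3 sequences from 5p arms had the seed GUAAACA, which no other human miRNA with a sequence here carried. That search could not include miR-30b-5p and miR-30d-5p. The 3p arms fell into the seeds UUUCAGU (miR-30a-3p and miR-30e-3p) and UGGGAGA (miR-30c-1-3p and miR-30c-2-3p). Among the sequences used here, the only other miRNA with the last of these seeds was miR-6788-5p. It had 1 count in exposed replicate 1, 3 counts in unexposed replicate 2 and 0 in the other libraries. miR-30a-5p and miR-30e-5p were the same at 21 of 22 positions and differed by C13U, with positions counted from 1 at the 5′ end and the base of miR-30a first. miR-30a-3p and miR-30e-3p differed by G18A alone. miR-30c-5p shared its first 12 bases with both miR-30a-5p and miR-30e-5p. How reads that match several miRNAs were assigned is not given in the sources used here, so the split of counts between miR-30a and miR-30e is uncertain. The members without a sequence here could not be compared in this way, so the split of their counts from those of other members was not checked.

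The 6 precursor genes lie in pairs. MIR30E (chromosome 1, 40754355 to 40754446, plus strand, GRCh38) and MIR30C1 (chromosome 1, 40757284 to 40757372, plus strand) are 2837 bases apart in an intron of NFYC, which encodes a subunit of the transcription factor NF-Y. MIR30A (chromosome 6, 71403551 to 71403621, minus strand) and MIR30C2 (chromosome 6, 71376960 to 71377031, minus strand) are 26519 bases apart, within introns of the long noncoding RNA genes LINC00472 and AL136164.2 on the same strand. MIR30B and MIR30D are 4268 bases apart on chromosome 8, within no other gene of GENCODE 29. miR-30c-5p is the same sequence in both its precursors, so its counts cannot be divided between chromosomes 1 and 6.

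The counts of all miRNAs summed to between 12100425 and 24858230 per library, and each exposed library was deeper than each unexposed one. Depth and exposure therefore cannot be told apart by design, although all members lay far above the floor of 3 counts (0.121 to 0.248 CPM, the count of a miRNA scaled to a fixed library total). All miRNAs in a list of 8 neuronal markers were read in every library. The list summed to between 247258 and 251660 CPM in the exposed and between 231025 and 249078 CPM in the unexposed libraries. Most of this sum was miR-9-5p (167314 to 214909 CPM). miR-124-3p was at 6134 and 3292 CPM with ethanol and at 2494 and 2329 CPM without, so that its groups did not overlap (unadjusted P 0.0316 and adjusted p 0.922 in edgeR, log2 fold change 0.77). Of all miRNAs tested, 23.5% were higher in both exposed libraries on this scale. Of the 8 neuronal miRNAs, miR-124-3p alone had an unadjusted P under 0.05 in edgeR. The log2 fold changes of miR-9-5p (-0.23), miR-218-5p (-0.26) and miR-129-5p (-0.03) were below 0, and those of the others above 0. Of 8 markers of pluripotent cells, miR-367-3p, miR-371a-3p and miR-373-3p were at 0 in every library. The list summed to 2.74 to 2.86 CPM with ethanol and to 2.94 to 4.13 CPM without, again with no overlap. These sums rest on few reads, with 21 to 31 counts for the most abundant of the list, miR-302b-3p. Among single tested miRNAs, 7.3% were lower in both exposed libraries on this scale. The summed lists for oligodendrocytes (64.3 to 123 CPM, nearly all miR-219a-2-3p), mesenchymal cells (78.6 to 121 CPM), epithelia (92.0 to 138 CPM) and blood cells (0.0826 to 0.684 CPM) overlapped between the groups except for blood cells, where the exposed libraries (0.585 and 0.684 CPM) were above the unexposed. The blood sum was nearly all miR-451a, near the floor, at 12 and 16 counts with ethanol and 6 and 1 without. The part of any of these markers in the miR-30 values was not tested. The lists hold no marker of cortical interneurons in particular, and no list was made for neural progenitors or astrocytes. In bulk samples, fewer cells of a type and less RNA per cell cannot be told apart.

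Together the 10 members took 2.81% (95% Wilson interval 2.80 to 2.82%) and 2.61% (2.61 to 2.62%) of the counts in exposed replicates 1 and 2. In the unexposed libraries they took 2.63% (2.62 to 2.64%) and 2.51% (2.50 to 2.52%). These intervals cover counting error within a library only, and not the spread between cultures. The reads carried no molecular identifiers, so copies of one molecule were not told apart and the intervals may be too narrow. The 5p arms made up 81.4% and 82.4% of the family's counts with ethanol and 84.5% and 78.5% without. The exposed libraries thus lay between the unexposed ones. Levels below are CPM scaled by TMM, a factor per library that brings the bulk of miRNAs to one scale. They are levels of reads counted and need no scaling by length, since mature miRNAs are of nearly equal length. How evenly different sequences enter a library was not measured, so comparisons between members are of reads and not of molecules.

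**Figure D1:**
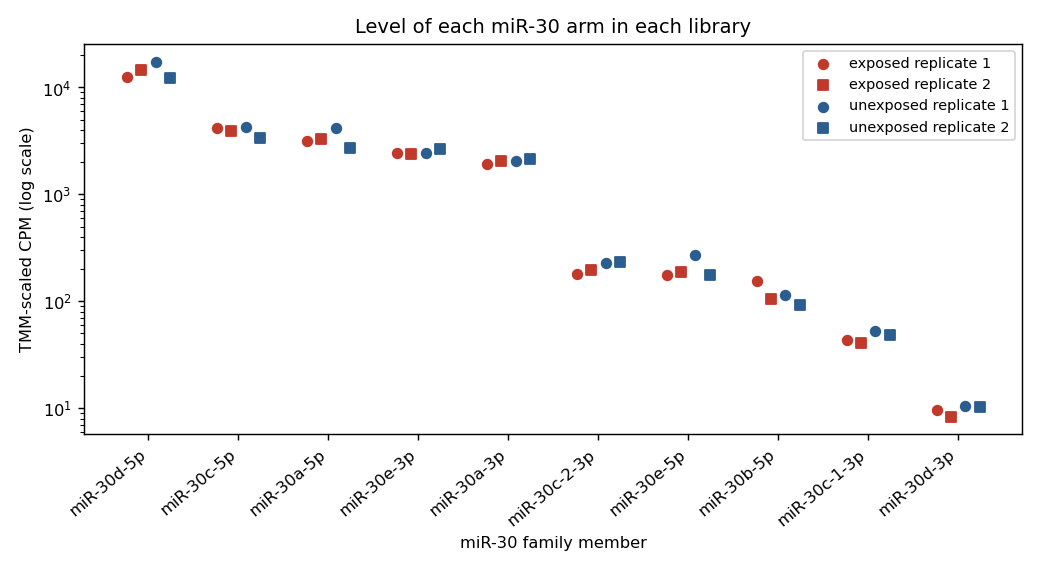
Level of each miR-30 family member in TMM-scaled CPM (vertical axis, log scale) in the 4 libraries, with members ordered by their mean. Red points are the ethanol-exposed and blue points the unexposed cultures, with circles for replicate 1 and squares for replicate 2. miR-30d-5p was highest in each library and miR-30d-3p, from the same hairpin, lowest.

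The levels of the members spanned 1461-fold. miR-30d-5p, which is often studied in tumours together with its neighbour miR-30b, was the most abundant, ranking 19 among the 863 miRNAs tested and taking 62.2% to 66.2% of the 5p counts of the family. Next came miR-30c-5p and miR-30a-5p, known respectively for repression of the lipid transfer protein MTTP and of the autophagy protein Beclin 1. Their ranges over the 4 libraries overlapped (3343 to 4307 and 2736 to 4205 CPM), but miR-30c-5p was above miR-30a-5p in 4 of 4 libraries, by 1.02 to 1.32 times. miR-30e-3p (2378 to 2648 CPM) and miR-30a-3p (1927 to 2149 CPM) followed, and did not overlap each other. The next member lay 9.79 times lower than miR-30a-3p by its mean. miR-30c-2-3p (181 to 231 CPM) and miR-30e-5p (176 to 270 CPM) overlapped, with miR-30c-2-3p higher in 3 of 4 libraries. miR-30b-5p ranged from 93.2 to 155 CPM, miR-30c-1-3p from 40.9 to 52.8 CPM and miR-30d-3p from 8.34 to 10.4 CPM.

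miR-30d-5p and miR-30b-5p, whose precursors are neighbours, were read in very unequal amounts. miR-30d-5p had 80.9 and 139 times the counts of miR-30b-5p with ethanol and 151 and 131 times without. Across the other neighbours only 3p strands can be compared. There miR-30e-3p had 46.5 to 58.1 times the counts of miR-30c-1-3p (chromosome 1). On chromosome 6, miR-30a-3p had 9.05 to 10.7 times the counts of miR-30c-2-3p. These are not ratios of whole precursors, since the 3p strand was the larger arm of miR-30e and the smaller arm of miR-30c. In exposed replicate 1 both arms together had 65752 counts for miR-30e, 128015 for miR-30a and 110231 for miR-30c, the last from both its hairpins. Between the miR-30c hairpins of chromosomes 6 and 1, miR-30c-2-3p had 4.12 to 4.84 times the counts of miR-30c-1-3p. miR-30d-5p had 3.98 to 4.45 times the counts of miR-30a-5p. miR-30a-5p had 17.9 and 17.8 times the counts of miR-30e-5p with ethanol and 15.6 and 15.5 times without, while miR-30e-3p had 1.15 to 1.26 times those of miR-30a-3p in all 4 libraries. In the first of these pairs the ratio was higher in both exposed libraries, and in the second the groups overlapped. Both ratios rest on the uncertain split of reads between miR-30a and miR-30e, and no test was made of them. Among single tested miRNAs, the groups did not overlap in 33.4%.

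No change with ethanol exposure passed a test for any of the 10 members. With edgeR's quasi-likelihood test on the 863 miRNAs that passed the filter on low counts, 0 of 10 members had an adjusted p under 0.05 (0% of all miRNAs tested) and 0 had an unadjusted P under 0.05 (4.52% of all tested). The unadjusted P of the members ranged from 0.226 to 0.738 and the adjusted p from 0.922 to 0.983 in edgeR, and limma-voom and DESeq2 also gave 0 members with an unadjusted P under 0.05. The median log2 fold change (exposed over unexposed) was -0.12 over the 10 members and -0.01 over all tested miRNAs, whose quartiles were -0.24 and 0.25. A smallest two-sided exact permutation p of 0.333 is possible with 2 cultures in each group.

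miR-30d-5p was at 12536 and 14422 CPM with ethanol and at 17413 and 12190 CPM without. The unexposed cultures were thus the highest and the lowest of the 4, with the exposed cultures between them. Its mean was 13479 ± 1334 CPM (SD, n = 2) with ethanol and 14802 ± 3694 CPM (SD, n = 2) without, or -0.14 as a log2 fold change (standard error 0.27, 95% interval -0.76 to 0.49).

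miR-30a-5p showed the same arrangement, at 3150 and 3331 CPM with ethanol and 4205 and 2736 CPM without. Its log2 fold change was -0.10 (standard error 0.26, 95% interval -0.71 to 0.51). miR-30c-5p was at 4147 and 3943 CPM with ethanol and at 4307 and 3343 CPM without, again with the exposed values inside the unexposed ones. Its log2 fold change was 0.08 (standard error 0.23, 95% interval -0.46 to 0.62). For each of the 10 members the 95% interval left out a 2-fold change in either direction.

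miR-30e-5p was at 176 and 187 CPM with ethanol and at 270 and 176 CPM without, where only unexposed replicate 1 stood above the rest. The log2 fold change was -0.30 (standard error 0.26, 95% interval -0.90 to 0.31). Without unexposed replicate 2 it was -0.61, and without unexposed replicate 1 it was 0.04. miR-30b-5p was at 155 and 104 CPM with ethanol and at 115 and 93.2 CPM without, and exposed replicate 1 was the high value. It had the highest log2 fold change of the family, 0.31 (standard error 0.27, 95% interval -0.32 to 0.94), which was -0.0044 without exposed replicate 1.

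Each of the 5 members from 3p arms had a log2 fold change below 0, with a median of -0.20, although miR-30a-3p and miR-30e-3p were above 0 when libraries were scaled by size only (0.06 for each). In 4 of them both exposed libraries were below both unexposed libraries. Among all tested miRNAs 14.6% were arranged this way, and in 33.4% the groups did not overlap in one direction or the other. No member was higher in both exposed libraries than in both unexposed libraries (0 of 10, against 18.8% of all tested). This arrangement rested on the TMM factors. In CPM without them, 0 of 10 members were lower in both exposed libraries (7.3% of all tested), and 2 of 10, miR-30b-5p and miR-30c-5p, were higher in both (23.5% of all tested).

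miR-30c-2-3p was at 181 and 198 CPM with ethanol and at 228 and 231 CPM without. This was the lowest unadjusted P of the family (0.226 in edgeR, exact permutation 0.333), at -0.28 on the log2 scale (standard error 0.21, 95% interval -0.77 to 0.21). miR-30c-1-3p, from the other miR-30c hairpin, was at 43.9 and 40.9 CPM with ethanol and at 52.8 and 48.0 CPM without, and changed by -0.25 on the log2 scale (standard error 0.24). On the TMM scale both miR-30c 3p strands were thus lower in both exposed libraries, while their shared 5p product, miR-30c-5p, overlapped between the groups. In CPM without TMM factors both 3p strands overlapped between the groups, and miR-30c-5p was higher in both exposed libraries.

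miR-30e-3p was at 2432 and 2378 CPM with ethanol and at 2456 and 2648 CPM without. On the TMM scale its groups did not overlap, but exposed replicate 1 and unexposed replicate 1 were nearly equal. The log2 fold change was -0.09 (standard error 0.21, 95% interval -0.57 to 0.40). miR-30a-3p was at 1927 and 2064 CPM with ethanol and at 2063 and 2149 CPM without, or -0.08 on the log2 scale (standard error 0.21). The rare miR-30d-3p had 244 and 203 counts with ethanol (9.68 and 8.34 CPM) and 123 and 132 counts without (10.4 and 10.3 CPM), a difference of -0.20 on the log2 scale (standard error 0.28).

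**Figure D2:**
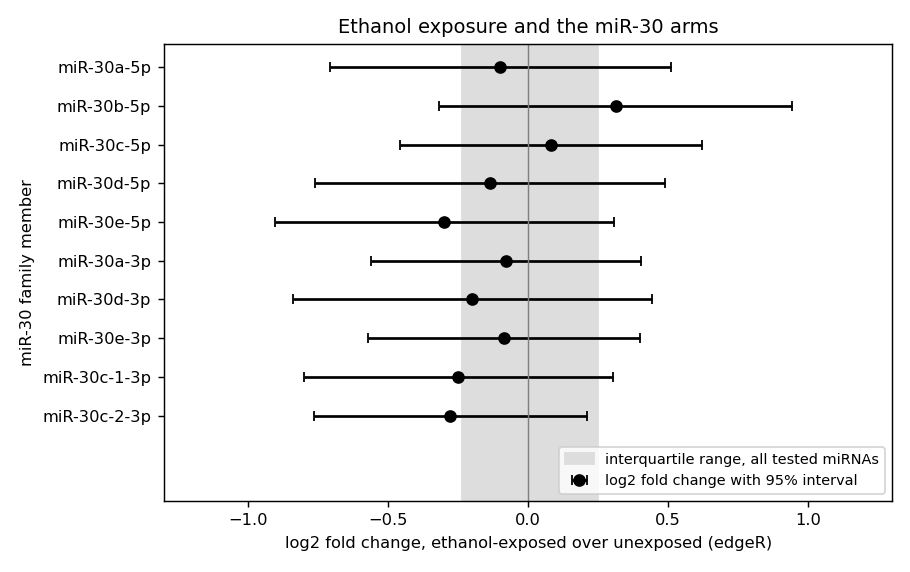
Log2 fold change of each miR-30 family member in ethanol-exposed over unexposed cells (edgeR, horizontal axis), with bars for the 95% interval. The grey band marks the quartiles of all 863 tested miRNAs (-0.24 and 0.25), and each of the 10 intervals includes 0.

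Scaling moved the direction of the small differences. With library size only, the median log2 fold change of all tested miRNAs shifted to 0.14 and miR-30a-5p (0.08) and miR-30d-5p (0.03) turned positive, remaining below that median. With upper quartile scaling the median of all was -0.12 and miR-30c-5p was at -0.03, above it. The summed 5p arms were at 20163 and 21987 CPM with ethanol and at 26311 and 18538 CPM without. The log2 difference of their group means was -0.09 and no test was made of the sum.

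The spread between cultures was uneven over the family. Between the unexposed cultures the 5p arms differed by 1.24 to 1.54 times on the TMM scale, each being higher in replicate 1, and the coefficients of variation of 4 of them were 17.8% to 29.9% (miR-30b-5p was at 104 ± 15.6 CPM, SD, n = 2). The 3p arms of the same cultures had coefficients of variation of 1.00% to 6.83%. The median over 367 other miRNAs with a mean of at least 10 CPM was 17.6%. Between the exposed cultures miR-30b-5p stood out with 27.8%, while the other 9 members had 1.57% to 10.5% against a median of 11.5%.

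**Figure D3:**
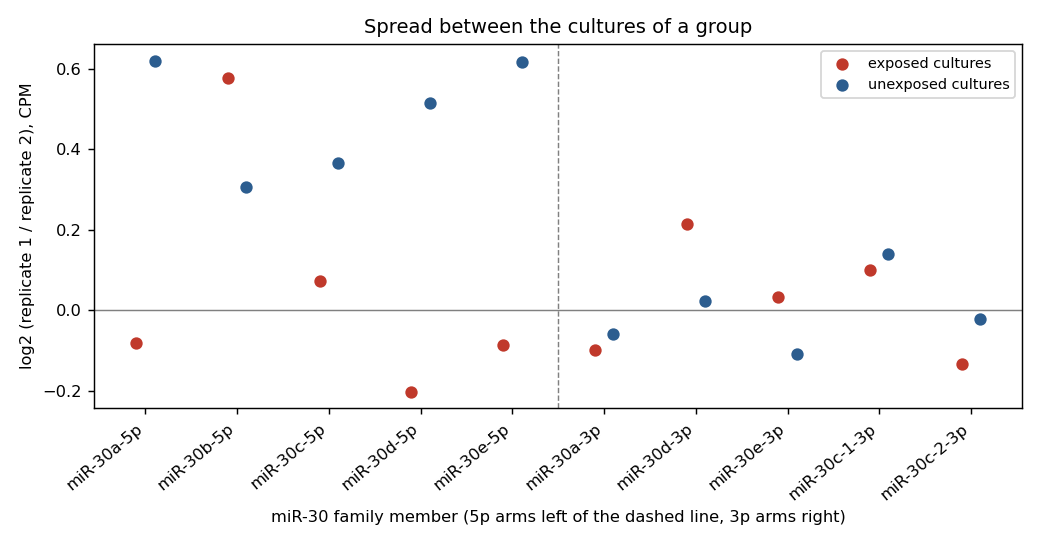
Log2 ratio of replicate 1 to replicate 2 in TMM-scaled CPM (vertical axis) for each miR-30 family member, in exposed (red) and unexposed (blue) cultures. The blue points of the 5p arms, left of the dashed line, all lie above 0 (ratios of 1.24 to 1.54), while those of the 3p arms lie near 0 (0.927 to 1.10).

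How this spread divides between the arms depends on the scaling. In CPM without TMM factors the ratio of unexposed replicate 1 to replicate 2 was 0.984 to 1.22 for the 5p arms and 0.738 to 0.876 for the 3p arms, so that the 3p arms then differed too, in the opposite direction. The ratio of the arms within a library does not depend on scaling and was therefore compared directly.

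Arm balance differed greatly between the precursors. For miR-30d the 5p strand took 99.9% of the counts of both arms in each library. For miR-30c it took 94.9% and 94.3% with ethanol and 93.9% and 92.3% without, with the 3p strands of both hairpins added together. miR-30a was close to even, with a 5p share of 62.0% (95% Wilson interval 61.8 to 62.3%) and 61.7% (61.5 to 62.0%) in the exposed libraries and of 67.1% (66.7 to 67.4%) and 56.0% (55.6 to 56.4%) in the unexposed libraries. miR-30e was the reverse of the others: its 5p strand, with the seed of the family, took 6.75% (6.56 to 6.94%) and 7.28% (7.08 to 7.49%) in the exposed libraries and 9.91% (9.59 to 10.2%) and 6.24% (5.99 to 6.49%) in the unexposed libraries. miR-30e-3p thus had 9.09 to 15.04 times the counts of miR-30e-5p. The shares of miR-30a and miR-30e rest on the uncertain split of reads between them, which 1 base decides in each arm. With the counts of both precursors added together the 5p share was 43.3% (43.1 to 43.5%) and 44.2% (44.0 to 44.4%) with ethanol and 49.8% (49.5 to 50.1%) and 37.8% (37.5 to 38.1%) without. That sum, added after the separate shares were known, does not depend on the split between miR-30a and miR-30e. A split with miR-30d, which had no sequence here, was not checked. Among 71 other precursors with both arms at a mean of at least 10 CPM, the 5p strand was the larger in 34.

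Exposed and unexposed cells overlapped in arm balance for miR-30a, miR-30d and miR-30e. The log2 ratio of 5p to 3p counts of miR-30a was 0.71 and 0.69 with ethanol and 1.03 and 0.35 without, a difference of 0.01 between the group means. For miR-30d the difference was 0.09 and for miR-30e -0.18. For miR-30c the exposed libraries (4.21 and 4.04) were above the unexposed libraries (3.94 and 3.58), a difference of 0.36 on the log2 scale that was 0.19 without unexposed replicate 2 and 0.54 without unexposed replicate 1. Of the 71 other precursors, 11.3% were likewise higher in both exposed libraries, and in 29.6% the groups did not overlap in one direction or the other. These ratios are given as descriptions, with no test.

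In each of the 4 precursors the arm ratio was lowest in the same library, unexposed replicate 2. It lay below the mean of the 4 libraries by 0.35 for miR-30a, 0.29 for miR-30d, 0.27 for miR-30e and 0.36 for miR-30c on the log2 scale. The 3p strand miR-30b-3p is not among the members and was looked at only after the others had been seen, at 462 and 448 counts with ethanol and 244 and 239 counts without. With it the log2 ratio of miR-30b was 3.08 and 2.50 with ethanol and 2.48 and 2.32 without, so that its groups did not overlap either, and it too was lowest in unexposed replicate 2, by 0.27. Of the 71 other precursors 16.9% had their lowest ratio in that library, and their median there was 0.03 above their own means. The precursors of the miR-30 family are related in sequence and come from the same 4 libraries, so that they are not independent of each other.

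**Figure D4:**
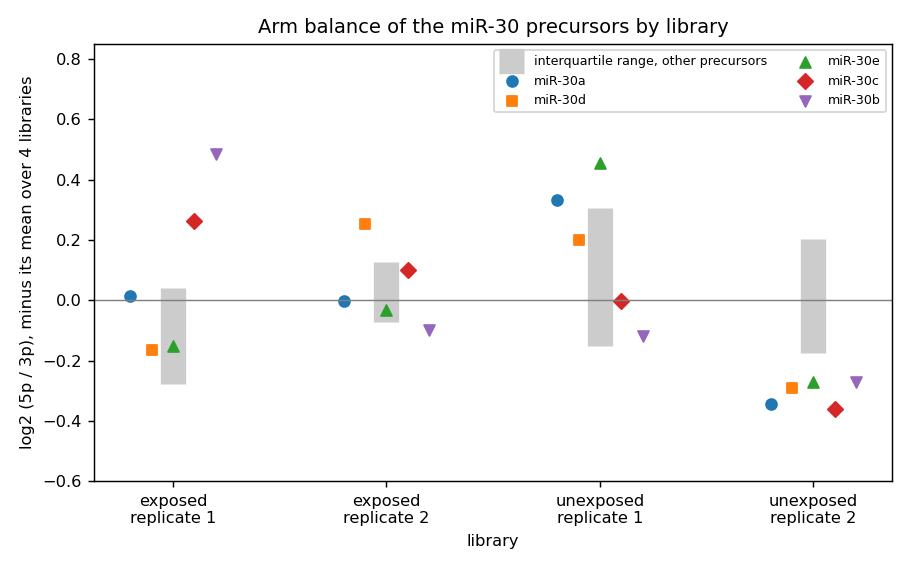
Log2 ratio of 5p to 3p counts of each miR-30 precursor in each library, after subtraction of its mean over the 4 libraries (vertical axis). Grey bars are the quartiles of 71 other precursors, and the points in unexposed replicate 2 all lie between -0.36 and -0.27, below the lower quartile there (-0.18).

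The miRNAs whose pattern over the 4 libraries was most like that of the summed 5p arms were miR-505-3p, miR-152-3p and miR-1246. After each was centred on its own mean, the root mean square difference in log2 CPM from the 5p sum was 0.02 for miR-505-3p and 0.03 for the other two, against a median of 0.27 over 367 candidates with a mean of at least 10 CPM. Each was highest in unexposed replicate 1 and lowest in unexposed replicate 2. miR-152-3p, for example, was at 587 and 635 CPM with ethanol and at 790 and 563 CPM without. With 4 libraries on one scale many miRNAs can resemble each other in this way, and the likeness is given as a description.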

How the data were processed

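Small RNA-seq libraries (NEBNext, 250 ng of total RNA) of 2 ethanol-exposed and 2 unexposed cultures were used, grouped by their titles. The authors processed reads with CAP-miRseq and deposited raw counts per mature miRNA (2656 names, 0 repeated). The submitters' processing notes name hg19, and the pipeline version and annotation release are not given in the sources used here. Counts carry no coordinates, so positions (GRCh38) come from GENCODE 29 and RefSeq by name, and 2367 names had a RefSeq mature sequence. The members, lists and tests were chosen with earlier results of these data known.

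Exposed and unexposed cells were compared in R 4.3.3 with edgeR 4.0.16 (low counts removed by filterByExpr at a minimum count of 10 and total of 15, TMM, quasi-likelihood test without covariates, Benjamini-Hochberg adjustment over 863 miRNAs). The standard error came from the F statistic. limma 3.58.1 (voom), DESeq2 1.42.0, other scaling and filters, a replicate block and leaving out each library were alternatives. Arm ratios used 0.5 added to each count. The fit was tested on simulated data. Replicates were compared before averaging: chi-square per degree of freedom was 795 between exposed and 712 between unexposed libraries, so no deposited library repeated the counts of another, which does not tell separate cultures from separate preparations of one RNA. Named were all members, miRNAs with a member's seed, the 3 of most similar pattern and the cell type markers.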

Additional observations from a re-analysis of the deposited data

How the results depend on the processing

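With all 4 libraries, 0 members had an adjusted p under 0.05 in edgeR, limma-voom or DESeq2 under any setting. The lowest was 0.818, with a crossed replicate block in edgeR. Of all miRNAs, 6 of 1825 passed with the filter of at least 1 count in any library, and 0 under the other settings that kept all 4 libraries. Of 145 log2 fold changes of members under other settings, each library left out in turn included, 135 kept their direction. With library size only, those of miR-30a-5p (0.080), miR-30d-5p (0.034), miR-30a-3p (0.062) and miR-30e-3p (0.056) turned positive, and with upper quartile scaling that of miR-30c-5p became -0.025. Scalings differ by a factor per library, which moves all miRNAs of that library together.

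With 1 library left out in turn, a group held a lone library, so only effect sizes are given. The log2 fold change then ranged from -0.41 to 0.24 for miR-30a-5p, from -0.0044 to 0.58 for miR-30b-5p, from -0.13 to 0.27 for miR-30c-5p, from -0.40 to 0.14 for miR-30d-5p and from -0.61 to 0.036 for miR-30e-5p. That of the summed 5p arms ranged from -0.32 to 0.19, the latter without unexposed replicate 1, and 0.08 with library size only. The difference in arm balance ranged from -0.33 to 0.35 for miR-30a, from -0.16 to 0.34 for miR-30d, from -0.55 to 0.18 for miR-30e and from 0.19 to 0.54 for miR-30c.

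The labels tie same-numbered libraries by a number only, and whether their cultures were paired is not stated. The log2 difference of replicate 1 from replicate 2 in exposed cells had a correlation of -0.19 with that in unexposed cells, across 863 miRNAs. With the replicate block 0 members had an unadjusted P under 0.05 in edgeR, and the summed 5p arms differed by -0.07. A crossed replicate block, tried after this correlation was known, gave 0 members as well. All members exceeded 100 counts in every library.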
